A study of Leucoraja erinaceus with 4 samples.

Results

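In skates and rays the first vertebrae fuse into a cartilage block, the synarcual, and the free vertebrae that follow make up the post-synarcual. RNA of the post-synarcual was compared between stage 28 and stage 33 embryos of the little skate, Leucoraja erinaceus (spelled erinacea in the series design), using 2 of the 4 libraries of the series: 1 post-synarcual library of each stage. The other 2 are the synarcual libraries of the same stages and serve here only as a second region. All 4 came from males, and no treatment is given. The labels speak of 2 males at the stages, a wording that does not say whether 1 or 2 animals stand behind each library. No strain or genotype is given. Axial muscle and the central nervous system had been cut away before freezing. Each group is 1 library, so no difference below has a replicate check, no p-value is given, and stage, animal and library cannot be told apart. Unless another kind is named, intervals are exact 95% Clopper-Pearson intervals and cover counting error only.

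The skeleton of skates is cartilage throughout life. Chondrocytes lay down a matrix of fibrillar collagen and proteoglycan, and in cartilaginous fishes the surface of many elements later mineralises as small blocks, while the vertebral centra mineralise around the notochord. The deposited files list 23105 features, the genes of a de novo assembled transcriptome, by assembly identifiers alone. They pair none with a gene name, and 0 matched the RefSeq gene table of the species. Levels are therefore given by identifier, no gene function is assigned, no sequence is shown, and the tissue label could not be checked against marker genes. In bulk RNA, fewer cells of a type and less RNA per cell cannot be told apart.

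The total estimated count was 3922525 at stage 28 and 5092346 at stage 33 in the post-synarcual, and 4167062 and 4713268 in the synarcual. The stage 33 post-synarcual library was the deepest of the 4, yet fewer of its features were well counted. Of all features, 9937 had at least 50 counts in the post-synarcual at stage 28 and 7577 at stage 33, and 20555 against 19338 had any count. A feature was compared when the higher of its 2 post-synarcual counts was at least 50, which left 10515 features. Just inside this limit, 64 features had a higher count of exactly 50, with a median of 22 in the other library. Just outside, 86 had 49, with a median of 25.

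At stage 33 a small number of features held most of the post-synarcual counts. At stage 28, 124 features together held the first 25% of the counts, and at stage 33, 8 did. For 50% of the counts the numbers were 837 and 39, for 75% they were 3242 and 664, and for 90% they were 6667 and 3492. Features with at least 1% of a library's counts numbered 3 at stage 28 and 19 at stage 33. Of the stage 28 counts, 22.8% belonged to the 100 most abundant features, and of the stage 33 counts 58.9%. In the synarcual the same share went from 24.6% to 47.4%. The stage 33 post-synarcual was the most concentrated of the 4 libraries by this measure.

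**Figure D1:**
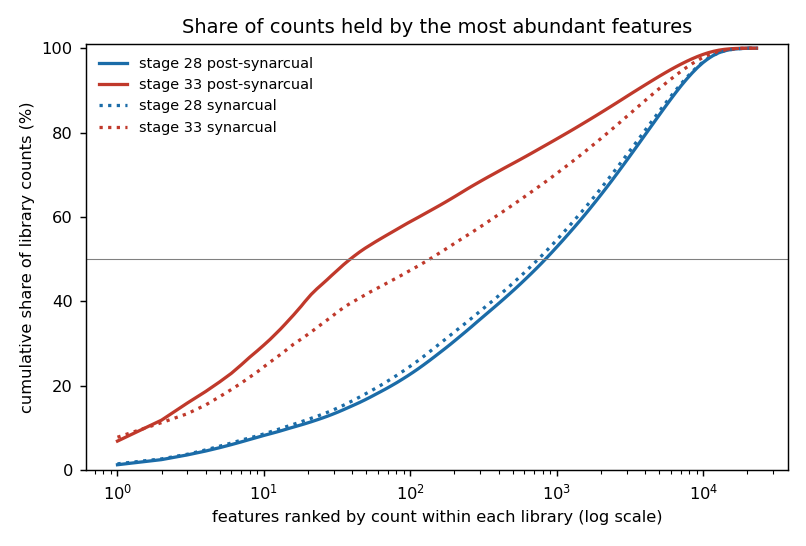
Cumulative share of library counts (y axis, %) against the rank of features by count (x axis, log scale) in the 4 libraries, with a line at 50%. The stage 28 post-synarcual reaches 50% at rank 837 and the stage 33 post-synarcual at rank 39; the synarcual libraries (dotted) reach it at ranks 748 and 136.

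Long features collect more reads than short ones, so the same question was asked in TPM, which divides by length. The 10 most abundant features had a median length of 5432 bp in the stage 33 post-synarcual by counts and 1217 bp by TPM. By TPM, 387 features held 50% of the total at stage 28 and 92 at stage 33. Features with at least 1% of the TPM total numbered 1 at stage 28 and 14 at stage 33. The rise in concentration was present on both scales and smaller in TPM. The overlap between the most abundant features of the stages grew with the length of the list. Of the 10 most abundant features of each stage, 4 were shared by counts and 0 by TPM, and of the 100 most abundant, 41 were shared by counts and 56 by TPM. Of the 1000 most abundant, 582 and 658 were shared.

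Shares of a library have to add up, so the gain of some features is the loss of the rest. In all, 4119 features gained share from stage 28 to stage 33 and 17672 lost it, and 53.3 percentage points of the counts changed hands. Only 11 features made up 50% of the gain, and 99 made up 90% of it. Those 11 held 3.62% of the post-synarcual counts at stage 28 and 30.9% at stage 33. In the synarcual libraries, which had no part in choosing them, they held 2.98% and 23.1%. The loss was spread widely, with 859 features making up 50% of it and 5955 making up 90%.

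Because of this shift, the number of features called higher or lower depends on how the libraries are scaled. The main scaling was the trimmed mean of M-values (TMM), which sets the bulk of features level between libraries. It placed the median log2 fold of the compared features at -0.08. A feature was called when its log2 fold of stage 33 over stage 28, with a prior count of 2, was at least 1 in size. With TMM, stage 33 was higher by 2-fold or more in 1662 features, which is 15.8% of those compared, and lower by as much in 1637, which is 15.6%. With total library counts as the scale, 707 were higher (6.72%) and 6733 lower (64.0%), and the median log2 fold was -1.32. In TPM, 794 were higher (7.55%) and 5406 lower (51.4%), with a median of -1.03. The upward share of all calls was thus 50.4% with TMM, 9.50% with total counts and 12.8% in TPM. Which of these matches the amount of RNA per cell was not tested. The 3 scalings had 704 higher and 1636 lower features in common. These are nearly the 707 higher with total counts and the 1637 lower with TMM. A change of scaling mostly shifts all folds together, so the overlap is not separate support. Those 704 features held 6.91% of the post-synarcual counts at stage 28 and 58.2% at stage 33. The 1636 held 16.1% and 2.19%.

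**Figure D2:**
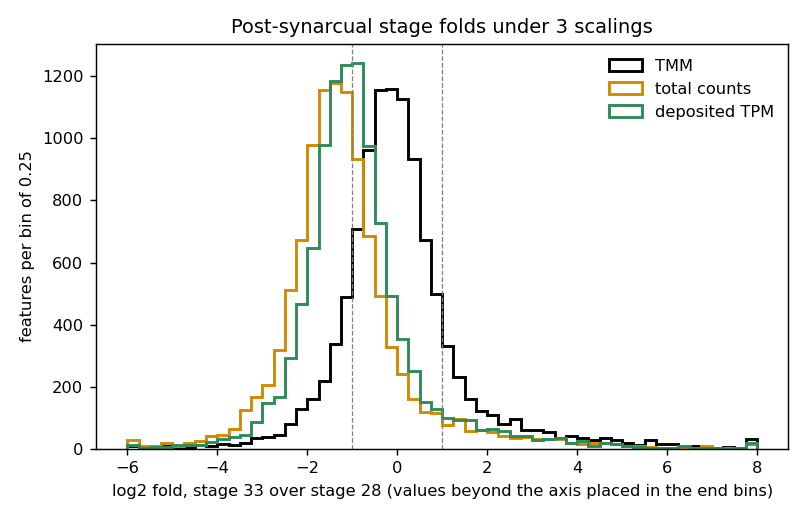
Number of features (y axis, bins of 0.25) by log2 fold of stage 33 over stage 28 in the post-synarcual (x axis) for the 10515 compared features under TMM scaling, total counts and deposited TPM, with dashed lines at 2-fold. The medians lie at -0.08, -1.32 and -1.03, and the long tail reaches to the right in all 3.

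On the TMM scale the folds were lopsided in their size more than in their number. With total counts and in TPM, given above, the numbers at 2-fold were the more lopsided. With TMM, a fold of 4 or more was seen in 817 higher and 431 lower features. At 8-fold the numbers were 472 and 142. At 16-fold, 280 were higher, 2.66% of those compared, and 60 lower, 0.571%. At 64-fold, 75 were higher and 5 lower, and at 256-fold, 24 were higher and 0 lower. Fewer lower than higher features had an interval wholly beyond the fold. The interval of the fold lay wholly beyond 2-fold in 1235 features on the higher side and 800 on the lower side, and wholly beyond 16-fold in 213 and 25. Large folds were also fewer on the lower side, so these numbers do not separate counting error from the size of the folds. The 280 features at least 16-fold higher had a median of 13 counts at stage 28 and 453.5 at stage 33. Together they held 1.74% of counts at stage 28 and 40.3% at stage 33. The 60 at least 16-fold lower had medians of 193 and 2.5 counts and held 0.583% and 0.00583%. At 16-fold the excess of higher over lower features turned with the scaling, to 139 higher and 161 lower with total counts, and stood at 134 and 81 in TPM.

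The minimum of 50 counts did not weigh the stages equally. After TMM scaling, 50 counts stood for 8.88 CPM (counts scaled to library size) at stage 28 and 16.4 CPM at stage 33, so that scarce features entered the comparison more easily through stage 28. Of the 64 features with a higher count of exactly 50, 47 had that higher count, before scaling, at stage 28. With the same minimum of 16.4 CPM in both libraries, an alternative added after the data were seen, 8885 features were compared. Of these, 1662 were at least 2-fold higher and 1254 lower, and 280 and 51 met the 16-fold rule. The numbers of higher features could not change, because that minimum equals 50 counts at stage 33. The 60 features at least 16-fold lower had a median stage 28 count of 193, against 156 for all compared features. They had at least 50 counts at stage 28 by the rule itself, which others could meet through stage 33. The 2 medians therefore do not say whether the 60 were scarce to begin with.

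**Figure D3:**
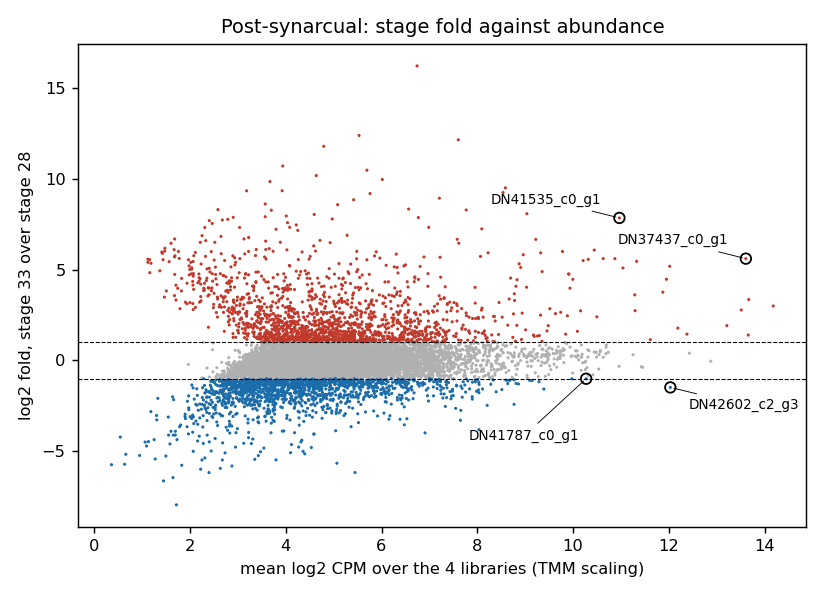
Log2 fold of stage 33 over stage 28 in the post-synarcual (y axis, TMM scaling) against the mean log2 CPM of the 4 libraries (x axis), 1 point per compared feature, red at least 2-fold higher, blue at least 2-fold lower, with the 4 named features circled. The mean on the x axis includes both libraries of the fold. The folds reach further above 0 than below it, with 280 features at 4 or more and 60 at -4 or less.

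The named features, 4 in all, were chosen by rule, as those with the largest gain and loss of share among features called in the same direction by TMM, total counts and TPM. TRINITY_DN37437_c0_g1 (6020 bp, 1 transcript) gained most. It had 13280 counts in the post-synarcual at stage 28 and 350272 at stage 33, and 5457 and 367344 in the synarcual. Its share of post-synarcual counts was 0.339% at stage 28 (interval 0.333 to 0.344) and 6.88% at stage 33 (6.86 to 6.90), which moved it from rank 13 to rank 1. Per length, it went from 792 to 19030 TPM. With TMM its level was 48.8-fold higher at stage 33 (48.0 to 49.7), a log2 fold of 5.61, against 4.34 with total counts and 4.59 in TPM. Both stage 33 libraries were far above both stage 28 libraries, where the feature was already among the 100 most abundant, and the synarcual fold was the larger, at 99.3 (96.7 to 102).

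TRINITY_DN41535_c0_g1 (6023 bp, 1 transcript) had 2024 counts at stage 28 and 252871 at stage 33 in the post-synarcual. In the synarcual it had 126 and 93633. Its post-synarcual share rose from 0.0516% (0.0494 to 0.0539) to 4.97% (4.95 to 4.98), from rank 246 to rank 2, and its level per length from 121 to 13731 TPM. It was 231-fold higher at stage 33 (221 to 242) with TMM, a log2 fold of 7.85, against 6.59 with total counts and 6.82 in TPM. The synarcual fold was again larger, at 1096 (921 to 1316), from a stage 28 level far below that of the post-synarcual.

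The largest loss was that of TRINITY_DN42602_c2_g3 (1725 bp, 2 transcripts). It had 35985 counts in the post-synarcual at stage 28 and 6945 at stage 33, and 42980 and 10975 in the synarcual. Its share fell from 0.917% (0.908 to 0.927) at rank 4 to 0.136% (0.133 to 0.140) at rank 65, and its level per length from 8165 to 1435 TPM. With TMM it was 2.80-fold lower at stage 33 (2.73 to 2.87), a log2 fold of -1.48, against -2.75 with total counts and -2.51 in TPM. The synarcual showed nearly the same fold, 2.65-fold lower (2.60 to 2.71).

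TRINITY_DN41787_c0_g1 (2226 bp, 1 transcript) had 10150 counts in the post-synarcual at stage 28 and 2728 at stage 33, with 11345 and 2863 in the synarcual. Its level per length fell from 1735 to 425 TPM and its rank from 17 to 160. It lay at the edge of the rule of size, 2.01-fold lower with TMM (1.93 to 2.10), a log2 fold of -1.01. With DESeq2 size factors its log2 fold was -0.96, so that it was no longer 2-fold lower. In the synarcual it was 2.69-fold lower (2.58 to 2.80).

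The component that holds TRINITY_DN42602_c2_g3 moved in both directions at once. An assembly component is a group of contigs that share sequence, so its features can be close copies of one another or pieces of 1 gene, and reads may be split among them. This component has 7 features, all compared. In the post-synarcual, 3 of them rose by 2-fold or more, 3 fell by as much and 1 stayed within 2-fold. The most abundant of them at stage 33 is 1030 bp long and was picked out once its values were known. It had 8542 counts at stage 28 and 102624 at stage 33. At 38801 TPM it was the most abundant feature of the stage 33 post-synarcual per length, up from 3545 TPM, and its level was 22.2-fold higher (21.8 to 22.7). The other 2 that rose, of 696 and 689 bp, were 35.0-fold (32.6 to 37.7) and 7.39-fold (6.95 to 7.87) higher. The 3 lower features stood at 0.357, 0.408 and 0.403 of their stage 28 levels, for lengths of 1725, 827 and 550 bp. The lower features were thus close to one another in fold, and the higher ones were not. Summed over the component, post-synarcual counts were 52869 at stage 28 and 130536 at stage 33, which is 1.35% and 2.56% of the library. In the synarcual the sum was 54137 and 56321, or 1.30% and 1.19%. These are shares of total counts, a scale on which stage 33 stands lower against stage 28 than with TMM, which gave the folds above.

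**Figure D4:**
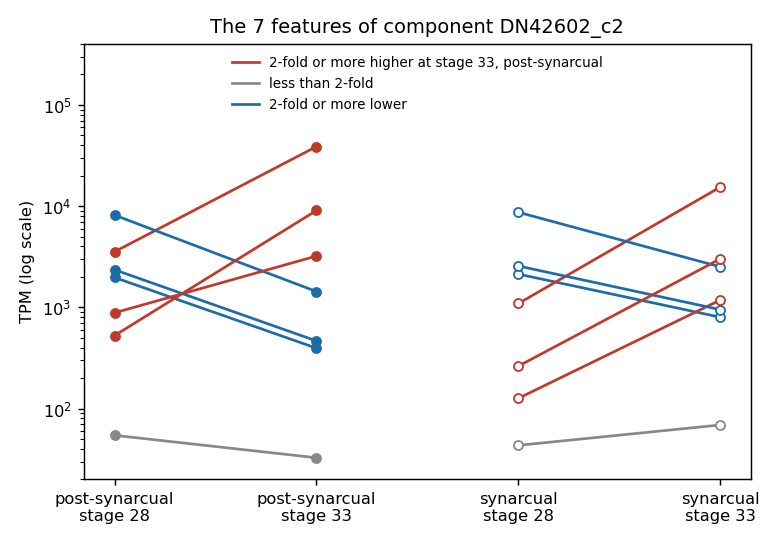
TPM (y axis, log scale) of the 7 features of 1 assembly component in the post-synarcual (filled points) and synarcual (open points) at stages 28 and 33, coloured by post-synarcual direction with TMM scaling. In the post-synarcual, 3 features rise, the highest from 3545 to 38801 TPM, and 3 fall, the highest from 8165 to 1435 TPM.

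Such splits were rare. Among the compared features, 495 components held 2 or more, 1054 features in all, which form 685 pairs. In 404 pairs both features were within 2-fold between the stages, in 84 both were at least 2-fold higher and in 63 both lower. A higher feature was paired with one within 2-fold in 50 pairs, and a lower one in 71. In 13 pairs, from 5 components, 1 was higher and the other lower. Most of these pairs came from the component described above. The median difference in log2 fold within a pair was 0.389, and 44 pairs were more than 2 log2 apart. Pairs share reads and sequence and are not independent.

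Some features went from hardly any counts to many. At stage 28, 71 features with at least 50 counts at stage 33 had 3 counts or fewer, and 27 of these had 0. At stage 33 they had between 51 and 101759 counts, a median of 104, and together 2.83% of the library. Most of that share was held by the 1 feature with 101759 counts, which was also among the 11 features of largest gain in share. Of these 71, 7 had 1000 counts or more at stage 33. In the second region, 55 of the 71 also had 3 counts or fewer in the stage 28 synarcual, 50 had at least 50 counts in the stage 33 synarcual, and 37 met both. In the other direction, 66 features with at least 50 counts at stage 28 had 3 or fewer at stage 33, and 13 had 0. They had between 50 and 607 counts at stage 28, a median of 92.5, and 0.209% of the library. Of these, 34 had 3 counts or fewer in the stage 33 synarcual, 38 had at least 50 at stage 28 there, and 14 met both. The rules used unscaled counts, and with TMM 50 counts stood for 8.88 CPM at stage 28 and 16.4 CPM at stage 33. On the TMM scale the rule was thus easier to meet in the falling direction, and with total counts as the scale the order is reversed. The 71 and the 66 are not like for like. Among all 23105 features, 9940 reached 50 in the synarcual at stage 28 and 8735 at stage 33. How many of all features had 3 or fewer there, or met both rules, was not worked out. Whether 37 of 71 or 14 of 66 exceeds the share among other features was therefore not tested. With 0 counts a true value of up to 3 remains possible, so a 0 here says only that the level was below that. As CPM of total counts, 3 counts are 0.765 at stage 28 and 0.589 at stage 33. The 8.88 and 16.4 CPM above are on the TMM scale. There the limit of 3 counts is higher at stage 33 than at stage 28.

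Features at least 16-fold higher or lower at stage 33 had a shorter median length than those within 2-fold. The median length was 1814 bp for the 280 features at least 16-fold higher (95% order-statistic interval of the median 1633 to 2004). It was 2191 bp (2105 to 2276) for all features at least 2-fold higher, 2411 bp (2373 to 2456) for those within 2-fold and 2372 bp (2288 to 2454) for those at least 2-fold lower. The 60 features at least 16-fold lower also had a short median, 1818 bp (1675 to 2241). Of the 16-fold higher features 20% were under 1000 bp, of those within 2-fold 9.70%, and of the 16-fold lower 6.67%. Contigs with more than 1 transcript made up 26.4% of the higher, 25.1% of those within 2-fold and 23.3% of the lower features. These are descriptions across features, which are not replicates. Lengths were not compared at equal abundance. A mean log2 CPM of 4 or less over the 4 libraries was found in 141 of the 280 and 48 of the 60. Among all 10515 compared features, 2820 were as scarce. Whether the shorter lengths go with low abundance was not tested.

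The synarcual was set beside the post-synarcual to see which stage folds were shared. The 2 regions have no library in common, but the labels do not say that they come from different animals. In the synarcual, TMM gave 2012 higher features (18.5% of 10888 compared) and 1751 lower ones (16.1%) by the same rule. Of the 1662 features higher in the post-synarcual, 112 had fewer than 50 counts in both synarcual libraries, and of the 1637 lower ones 133. Of the 1550 features higher in the post-synarcual that could also be compared in the synarcual, 78.9% were higher there too by the same rule, 324 were within 2-fold and 0.194% were lower. Of the 1504 lower in the post-synarcual, 69.4% were lower in the synarcual, 454 were within 2-fold and 0.399% were higher. A feature that is low at 1 stage can pass the minimum in the synarcual only through the other stage, so these shares cover only features that passed it and are in part fixed by it. Summed over all members, the 280 features at least 16-fold higher in the post-synarcual held 0.728% of synarcual counts at stage 28 and 30.4% at stage 33. The 60 features at least 16-fold lower held 0.264% and 0.0111%. Of the 280, 30 reached 50 counts in neither synarcual library, and of the 60, 19. Among all 10515 features compared in the post-synarcual, 491 reached 50 counts in neither.

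Some stage folds differed in size between the regions. The ratio of the stage folds, post-synarcual over synarcual, was at least 2 in 443 of the 10024 features compared in both (4.42%) and at most 0.5 in 623 (6.22%). It was at least 4 in 47 features (0.469%) and at most 0.25 in 94 (0.938%). A Wald counting interval of the ratio lay wholly beyond 2-fold in 40 of the 47 and 81 of the 94. These features were picked on the same ratio from the same counts, so this is not separate support. Among the 443 and 623 features at least 2-fold apart, the interval lay wholly beyond 2-fold in 100 and 184. With total counts the numbers at least 4-fold apart were 24 and 247, and in TPM 18 and 222, so the balance of the 2 sides rests on the scaling. The 2 features of largest gain, described above, are on the side of the synarcual, with log2 stage folds of 5.61 and 7.85 in the post-synarcual against 6.63 and 10.07 in the synarcual. Whether the regions differ beyond the spread between animals was not tested.

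**Figure D5:**
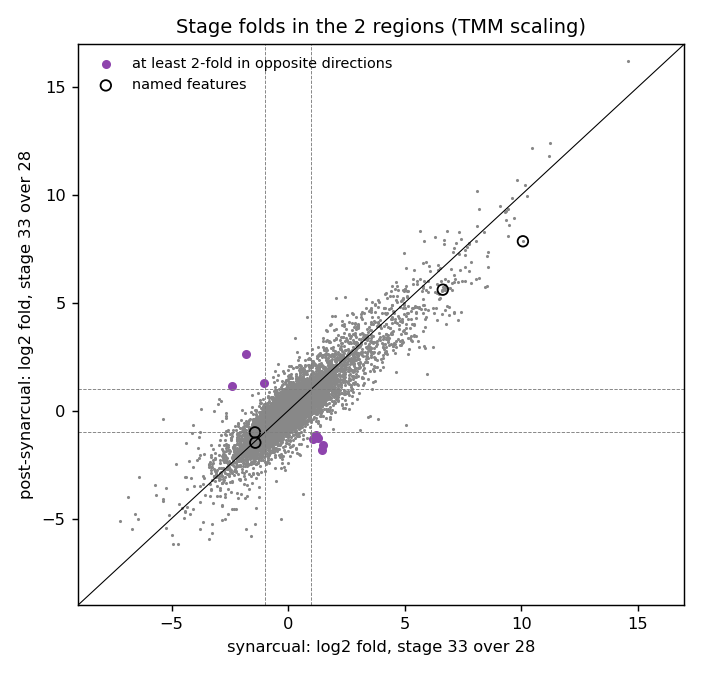
Log2 fold of stage 33 over stage 28 in the post-synarcual (y axis) against that in the synarcual (x axis), TMM scaling, for the 10024 features compared in both, with the line of equal folds and dashed lines at 2-fold. Circles mark the 4 named features and purple points the 9 features at least 2-fold apart between the stages in opposite directions in the 2 regions.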

How the data were processed

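Total RNA was made into unstranded TruSeq libraries and sequenced as 100 bp pairs in 1 pooled HiSeq2000 lane, per the labels' protocols. The submitters' processing notes name Bowtie2 and RSEM, with versions and filters not given in the sources used here. For each assembled gene the authors deposited, per the file headers, an estimated count (expected_count of RSEM), a TPM and an FPKM. The deposited FPKM values were not used. Lengths in bp are those in the authors' files, per the file headers.

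Estimated counts were rounded; 1.89% and 1.66% of values in the stage 28 and stage 33 post-synarcual libraries were not whole. Reads of overlapping genes on opposite strands, or of close copies, cannot be separated. If a count is a read and not a pair, the intervals are too narrow, and reads without molecular identifiers are not independent molecules.

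TMM factors (edgeR 4.0.16, R 4.3.3) came from the 14668 features that reached 10 counts in 2 or more libraries. Effective over total size was 1.44 at stage 28 and 0.597 at stage 33 in the post-synarcual. Folds printed as ratios are ratios of scaled counts. TPM folds are on the log2(TPM + 1) scale, which understates changes of low features. DESeq2 1.42.0 gave size factors only. The calculation of folds and intervals was run on simulated counts with known folds and counting error only. The simulation used the same library sizes for drawing and scaling. It therefore does not test the scaling or the spread between animals.

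The 4 named features follow a rule for files without gene names: among features called in the same direction by TMM, total counts and TPM, the 2 with the largest gain and the 2 with the largest loss of share. The comparison, rules and thresholds were chosen with earlier results of these data known. Marker lists could not be applied. Alternatives tried were other scalings, TPM, minimum counts, prior counts and a rule on the interval.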

Additional observations from a re-analysis of the deposited data

Results flagged for a closer look

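For 9 features the stages differed 2-fold or more in each region but in opposite directions, most of them lower at stage 33 in the post-synarcual and higher in the synarcual. With 1 library per group, no test of the difference between the regions was made. Their post-synarcual counts ran from 99 to 1781 at stage 28 and from 18 to 576 at stage 33. The 9, of 10024 features compared in both regions, were found with TMM scaling. With total counts the number was 20 and in TPM 19, but these were mostly other features. Only 1 of the 9 met the rule in all 3 scalings. Its log2 folds were 1.36 in the post-synarcual and -2.54 in the synarcual with total counts, and 1.58 and -2.18 in TPM.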

How the results depend on the processing

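Scaling moved most counts. With total counts, 707 features were at least 2-fold higher and 6733 lower, and 139 and 161 at least 16-fold. In TPM the numbers were 794 and 5406, with 134 at least 16-fold higher. Total counts without the 11 features that hold 50% of the gain, chosen after seeing the data, gave 932 and 4562. A minimum of 200 counts gave 801 and 692, and 29 at least 16-fold lower. Intervals wholly beyond the fold left 800 at least 2-fold lower and 25 at least 16-fold lower, and a prior count of 5 left 37. In TPM, 387 and 92 features held 50% of the total at stages 28 and 33, and the 10 most abundant held 6.22% and 20.6%, against 8.22% and 29.7% by counts. Features with stage folds at least 4-fold apart between regions numbered 24 and 247 with total counts and 18 and 222 in TPM. The median length of higher features was 2017 bp with total counts and 2015 bp in TPM, and of those within 2-fold 2320 bp with total counts. The cause of these shifts beyond the scaling itself was not tested. DESeq2 size factors, TMM over the 2 post-synarcual libraries, upper-quartile factors and TMM with no filter kept the recomputed counts of features within 1.5 times. The same minimum CPM in both libraries, added after seeing the data, gave 1254 lower features, also within 1.5 times. Its 1662 higher features could not change, because that minimum equals 50 counts at stage 33. TMM over the 2 post-synarcual libraries gives no comparison between regions. The 4 named features kept their direction under all alternatives run. For total counts and TPM this was fixed in advance, because the rule that chose them required it. The other scalings and the prior counts moved these log2 folds by far less than their size. A kept direction there says little. No paired analysis was possible because each group has 1 library, and for the same reason no replicate was left out. Low counts limit features that are scarce at stage 33, where 7577 have 50 counts or more although that library has the largest total of the 4.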
